A study of Mus musculus with 8 samples.

Results

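Genes of the cellular stress response that centres on the transcription factor Atf4 were followed in mouse dorsal root ganglia, the clusters of sensory neurons and their glia beside the spinal cord. The 10 genes are Atf4, Atf5, Ddit3, Cebpb, Nupr1, Trib3, Ddit4, Sesn2, Asns and Chac1. They were picked by gene symbol and are represented by 14 of the 25697 probes of an Illumina bead array, 10 of 16593 named genes. They were chosen with the mutant against wild-type differences of these same arrays already known, among them that of Ddit4. Their own differences are therefore given as a description. The fit across all features also covers them. How many it called is printed beside the share over all features, as no evidence about them. The closing section repeats that count for other settings, beside the number of all genes called, likewise as no evidence. Total RNA of ganglia at E12.5 was hybridised from 4 wild-type samples and from 4 mutant samples, labelled Erk1/2CKO(Wnt1). That name stands for a conditional knockout of the ERK kinases with a Cre recombinase driven by Wnt1, which acts in the neural crest and so in both the neurons and the glia of the ganglia. Blood cells, endothelium and macrophages, which the ganglia also hold, do not come from the neural crest. The alleles the wild-type embryos carry, and whether either kinase is lost outside the neural crest, are not stated in the labels. All ganglia were dissected in buffer with 10% RNAlater, an RNA stabiliser, and frozen. The samples came from 3 litters, and the labels do not say which litter, nor how many embryos, each sample holds; p-values below measure the spread between these samples, some of which share a litter. The wild-type arrays lay at one end of a single slide and the mutant arrays at the other, so position and genotype cannot be told apart.

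When a cell lacks amino acids, when unfolded protein collects in the endoplasmic reticulum or when haem is short, kinases phosphorylate the translation factor eIF2, and most protein synthesis slows. The mRNA of Atf4 is then translated more, through short reading frames ahead of its coding sequence, so much of the control of this factor does not pass through its mRNA level, which is what an array measures. Atf4 protein, paired with C/EBP proteins, binds a composite DNA element and raises genes for amino acid supply, for redox balance and for the next factors of the chain, such as Ddit3 and Trib3. Ddit4 and Sesn2 also answer to other inputs, hypoxia and p53, and both restrain the growth kinase complex mTORC1.

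The stretches of DNA just ahead of 4 of these genes are shown because they set the members that were higher in the mutant beside members with the same letters that were not. Each is the 250 bases before the annotated RefSeq start, read 5′ to 3′ on the strand of the gene (GRCm38.p6). In the first 3, capitals mark TGATGNAA, the core of the Atf4 and C/EBP composite element, or its reverse complement TTNCATCA. In Ddit4, capitals mark ACGTG, the core of the element bound by hypoxia-inducible factors. Nupr1 (chr7:126625471-126625720, minus strand), Chac1 (chr2:119350992-119351241, plus strand), Asns (chr6:7693210-7693459, minus strand) and Ddit4 (chr10:59951771-59952020, minus strand) follow.
Nupr1: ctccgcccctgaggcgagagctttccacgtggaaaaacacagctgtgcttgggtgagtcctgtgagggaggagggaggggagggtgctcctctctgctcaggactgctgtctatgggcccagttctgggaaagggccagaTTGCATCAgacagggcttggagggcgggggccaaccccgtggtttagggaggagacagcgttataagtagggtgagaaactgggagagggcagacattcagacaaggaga
Chac1: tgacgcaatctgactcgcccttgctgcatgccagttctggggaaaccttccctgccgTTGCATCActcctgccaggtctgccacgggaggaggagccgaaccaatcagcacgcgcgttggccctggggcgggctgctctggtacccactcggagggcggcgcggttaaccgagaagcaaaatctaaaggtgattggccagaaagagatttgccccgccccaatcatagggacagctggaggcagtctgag
Asns: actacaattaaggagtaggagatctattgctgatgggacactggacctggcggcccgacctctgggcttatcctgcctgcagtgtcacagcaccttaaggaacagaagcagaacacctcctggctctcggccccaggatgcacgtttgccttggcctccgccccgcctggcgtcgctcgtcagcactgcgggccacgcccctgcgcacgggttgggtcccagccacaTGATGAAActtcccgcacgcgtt
Ddit4: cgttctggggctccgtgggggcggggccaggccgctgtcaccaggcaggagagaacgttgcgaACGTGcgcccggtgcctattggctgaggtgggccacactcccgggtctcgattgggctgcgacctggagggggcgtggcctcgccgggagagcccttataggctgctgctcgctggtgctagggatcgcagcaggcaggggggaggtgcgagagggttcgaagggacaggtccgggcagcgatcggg

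All 10 genes had such a window in the RefSeq table. On either strand, TGATGNAA lay in the windows of 3 of the 10, Nupr1, Chac1 and Asns, and in 3.45% of all 32851 windows of that length. It began 110 bases before the start in Nupr1, 193 in Chac1 and 23 in Asns. ACGTG, or CACGT on the other strand, lay in the windows of Ddit4, Nupr1 and Asns, and in 16.6% of all windows; the pair of motifs nowhere overlapped in these genes. A match is a run of letters and not a measured binding site.

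Ddit4 and Nupr1 stood higher in the mutant, and the other 8 genes did not separate by genotype. On the log2 scale Ddit4 was higher by 0.66 ± 0.15 (SE, n = 4 per group), a 1.58-fold difference, and Nupr1 by 0.58 ± 0.14, a 1.49-fold difference. The other 8 ranged from -0.09 for Asns to 0.39 for Atf4, whose SE was 0.71. Of the 10 genes 8 had a mean over the arrays above the filter level and entered the fit, and 2 of these 8, Ddit4 and Nupr1, were called by limma at an adjusted p under 0.05, both higher. That count was 2 without mutant replicate 4, 1 without wild-type replicate 1 (Ddit4) or 2 (Nupr1), and 0 without any other single array. Over all 9664 features 2.52% were called, 1.4% higher in the mutant and 1.13% lower. The median difference of the 10 genes was 0.16, against 0.0013 over all features. Arrays of the genotypes did not overlap for 2 of the 14 probes, those of Ddit4 and Nupr1, against 7.67% of all 25697 probes and 12.1% of the features tested. Since the genes were chosen with this contrast known, nothing is read from these counts.

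**Figure D1:**
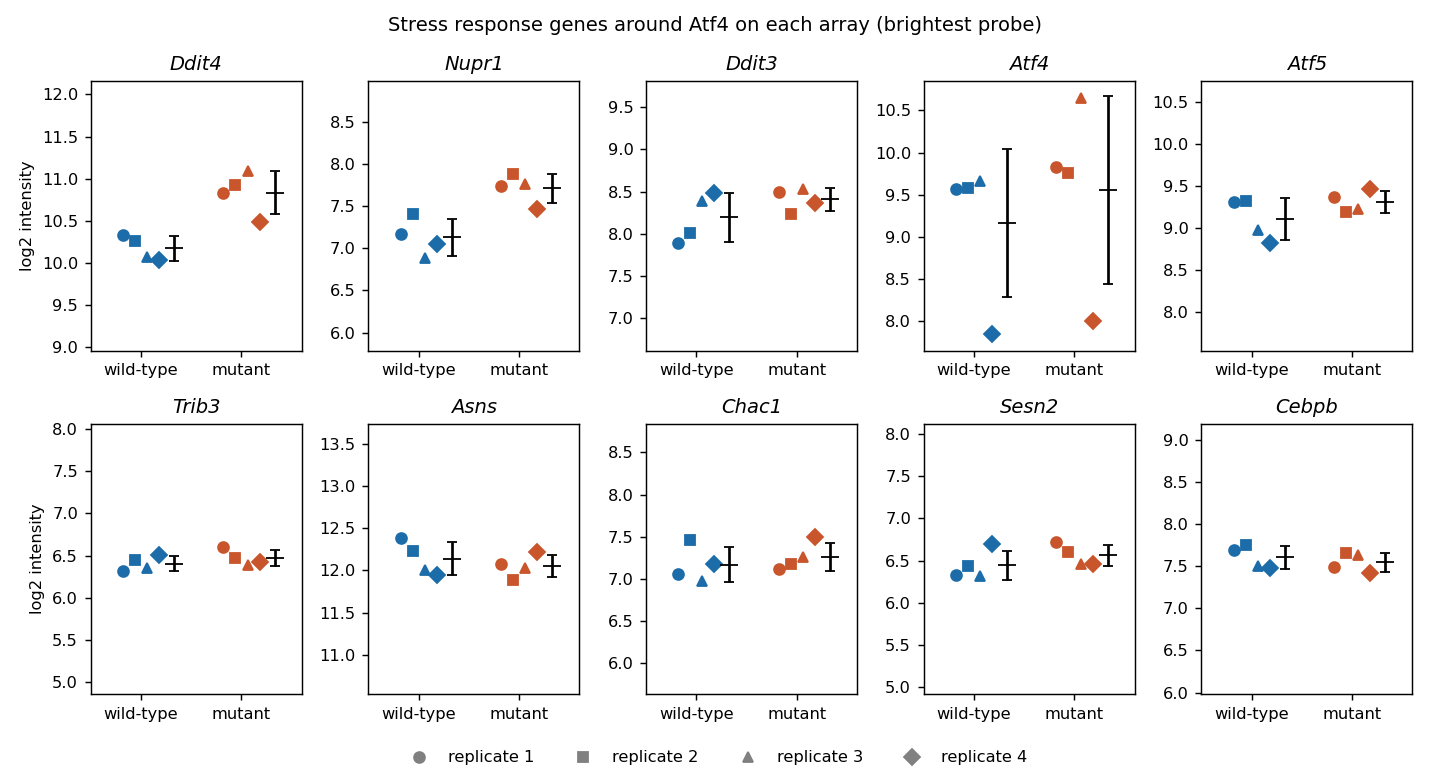
Log2 intensity of each of the 10 genes at its brightest probe on the 4 wild-type (blue) and 4 mutant (orange) arrays; symbols give the replicate, the bar beside each group is its mean ± SD, and each panel spans the same range. Ddit4 and Nupr1 separate by genotype, and Atf4 is low on replicate 4 of both groups.

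Ddit4 encodes a small inhibitor that silences mTORC1 through the TSC complex. Its log2 level was 10.34, 10.26, 10.07 and 10.03 on wild-type replicates 1 to 4. On the mutant arrays it was 10.84, 10.92, 11.09 and 10.49. The lowest mutant array, replicate 4, lay 0.15 above the highest wild-type array. In the intensities as deposited Ddit4 read 1053 to 1519 in the wild-type and 1526 to 1924 in the mutant, so the separation was already there before any normalization, by a small margin. Leaving out any 1 array gave a difference between 0.57 and 0.77. Without wild-type replicates 3 and 4 it was smallest, at 0.53.

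Nupr1 encodes a small, basic nuclear protein induced by many stresses. Its log2 level was 7.17, 7.41, 6.89 and 7.06 on the wild-type arrays. It was 7.74, 7.88, 7.76 and 7.47 on the mutant arrays. As for Ddit4, mutant replicate 4 was the lowest of its group, only 0.061 above wild-type replicate 2, the highest of the other group. In the deposited intensities these arrays overlapped, at 220 for mutant replicate 4 and 231 for wild-type replicate 2. Nupr1 was a dim probe, with intensities of 156 to 269 over all arrays, so background treatment matters: the difference was 0.46 in the authors' processed table, which has no background correction. With median scaling in place of quantile normalization it was 0.54, and leaving out any 1 array gave 0.50 to 0.67.

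The pattern of Ddit4 over the 8 arrays was closest to that of Prox1, a homeodomain transcription factor, with a root mean square difference of 0.091 in log2 level after centring each gene. Grn, the progranulin gene, which macrophages express strongly, followed at 0.094, then Npr2, a natriuretic peptide receptor gene, at 0.099 and Slc46a3, a lysosomal transporter gene, at 0.108. The median over all tested genes was 0.402. Nupr1 came 11th in this order at 0.134. Being picked for their likeness to Ddit4, these genes had to differ by genotype, and their differences are a description only: 0.74 for Prox1, 0.50 for Grn, 0.80 for Npr2 and 0.52 for Slc46a3.

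Markers of macrophages differed between arrays as well. All 7 measured markers (C1qa, C1qb, C1qc, Fcer1g, Tyrobp, Aif1 and Mrc1) had positive differences, with a median of 0.69, and 0 of 7 passed limma at an adjusted p under 0.05, against 4 at an unadjusted p under 0.05. Their mean log2 level relative to its average over the arrays was -0.32 to -0.34 on the wild-type arrays. It was 0.37, 0.61 and 0.89 on mutant replicates 1 to 3 and -0.56 on mutant replicate 4, the array on which Ddit4 and Nupr1 were lowest among the mutants. Summed marker intensity ran from 1985 to 2005 in the wild-type and from 1720 to 4431 in the mutant. On that array, with the lowest macrophage level of all 8, Ddit4 lay 0.15 and Nupr1 0.061 above the highest wild-type array, and in the deposited intensities Nupr1 lay below it. The part of macrophage RNA in the differences was not tested. In a bulk sample, more cells of a type and more RNA per cell cannot be told apart.

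**Figure D2:**
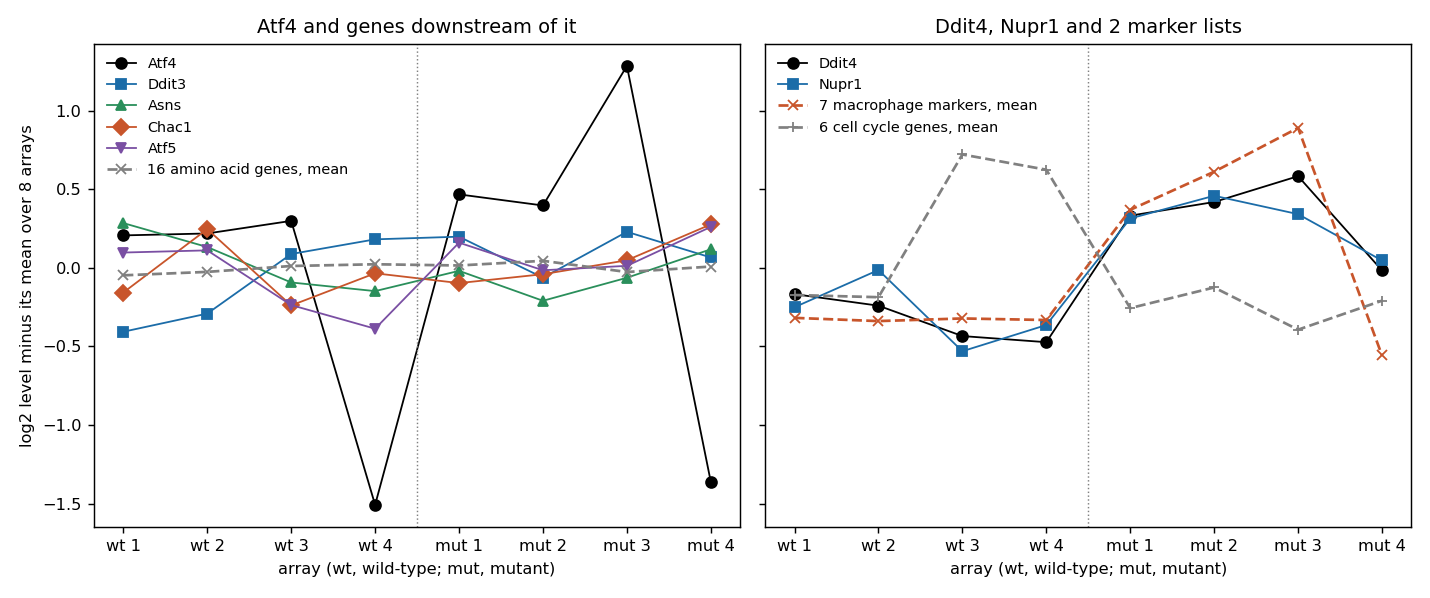
Log2 level on each array minus the mean over the 8 arrays. Left, Atf4 beside Ddit3, Asns, Chac1, Atf5 and the mean of 16 genes of amino acid synthesis and transport; right, Ddit4 and Nupr1 beside the mean of 7 macrophage markers and of 6 cell cycle genes. Atf4 is low on replicate 4 of both groups by far more than the genes beside it, and the macrophage mean is highest on mutant replicate 3 (0.89) and lowest on mutant replicate 4 (-0.56).

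Sesn2, the other mTORC1 inhibitor, encodes a leucine sensor that acts on the GATOR complexes. Both of its probes lay under the filter level of 6.71 and neither entered the test. The brighter one read 6.33, 6.44, 6.31 and 6.69 on the wild-type arrays and 6.72, 6.61, 6.45 and 6.47 on the mutant arrays, a difference of 0.12 ± 0.11, with overlapping groups. The dimmer one differed by 0.14 ± 0.06. Trib3, a pseudokinase gene induced by Atf4 that dampens Atf4 and Akt, was as dim: it lay under the filter level on all 8 arrays, at 6.32 to 6.51 in the wild-type and 6.39 to 6.60 in the mutant (difference 0.07 ± 0.06). At intensities of 99 to 157 against a table minimum of 80.3, differences of these 2 genes could hardly be measured.

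Among the transcription factors, Atf4 varied the most, and not by genotype. Its only probe read 9.57, 9.58, 9.66 and 7.85 on wild-type replicates 1 to 4. On mutant replicates 1 to 4 it read 9.83, 9.76, 10.64 and 7.997. Replicate 4 of each group lay 1.71 and 1.76 below the next array of its own group, and mutant replicate 3 stood above all others. The deposited intensities show the same, at 291 and 300 on the replicates 4 against 802 to 1448 elsewhere. The SD over the 8 arrays was 0.95, exceeded by 34 of 8935 genes, against a median SD of 0.161. A search made after these values were seen found Atf4 to be the only tested gene with both replicates 4 over 1 log2 unit below every other array of their groups. The difference of 0.39 ± 0.71 thus fell inside the spread. It was -0.04 without wild-type replicate 4, 0.91 without mutant replicate 4 and 0.48 without both.

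No other member had a gap of this size on replicate 4, but several leaned the same way. Replicate 4 minus the mean of the other arrays of its group was -1.75 among wild-type arrays and -2.08 among mutant arrays for Atf4. For Ddit3 the same contrasts were 0.38 and -0.06. Like those of Ddit3, they had opposite signs for Asns, at -0.26 and 0.22, and for Atf5, at -0.38 and 0.21. So had those of Sesn2, at 0.33 and -0.13, and of Trib3, at 0.14 and -0.06. For Chac1 they were 0.02 and 0.31, both above 0. Ddit4 stood low on replicate 4 in both groups, at -0.19 and -0.46, as did Nupr1 at -0.10 and -0.32 and Cebpb at -0.17 and -0.18. Mutant replicate 3, the highest array of Atf4, was also the highest of Ddit4, at 0.34 over the other mutant arrays. The same held for Ddit3, at 0.16 over them at its brighter probe. For Atf5, Trib3, Asns and Sesn2 that array lay below the mean of the other mutant arrays. The mean of 16 amino acid genes moved by at most 0.05 from its average on any array.

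Ddit3, the factor also called CHOP, which turns prolonged stress towards cell death, read 7.89, 8.01, 8.39 and 8.48 on the wild-type arrays at its brighter probe. On the mutant arrays it read 8.50, 8.24, 8.53 and 8.37. The difference was 0.21 ± 0.16 there and 0.11 ± 0.10 at the other probe, with overlap at both. Wild-type replicates 1 and 2 were lower than 3 and 4: the difference was 0.46 without the latter pair and -0.03 without the former. Atf5, a relative of Atf4 under similar translational control, split the other way within the wild-type, at 9.31 and 9.32 on replicates 1 and 2 and 8.97 and 8.82 on replicates 3 and 4. Its mutant arrays read 9.37, 9.19, 9.22 and 9.47, so the difference of 0.21 ± 0.14 became 0.00023 without the low pair, replicates 3 and 4, and 0.42 without the other pair. Cebpb, a C/EBP factor that pairs with Atf4, stood at 7.47 to 7.75 in the wild-type and 7.41 to 7.65 in the mutant, a difference of -0.06 ± 0.09.

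Asns, the asparagine synthetase gene and a classical Atf4 target, was bright and leaned the other way from Ddit4. At its brightest probe it read 12.38, 12.23, 12.005 and 11.95 on the wild-type arrays. It read 12.08, 11.89, 12.03 and 12.22 on the mutant arrays. The differences at its 3 probes were -0.09 ± 0.12, -0.23 ± 0.15 and -0.10 ± 0.12, all with overlapping groups. Chac1, whose enzyme breaks down glutathione, read 6.98 to 7.46 in the wild-type and 7.12 to 7.49 in the mutant, a difference of 0.09 ± 0.13. Asns and Chac1 carry the same composite letters ahead of their starts as Nupr1.

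**Figure D3:**
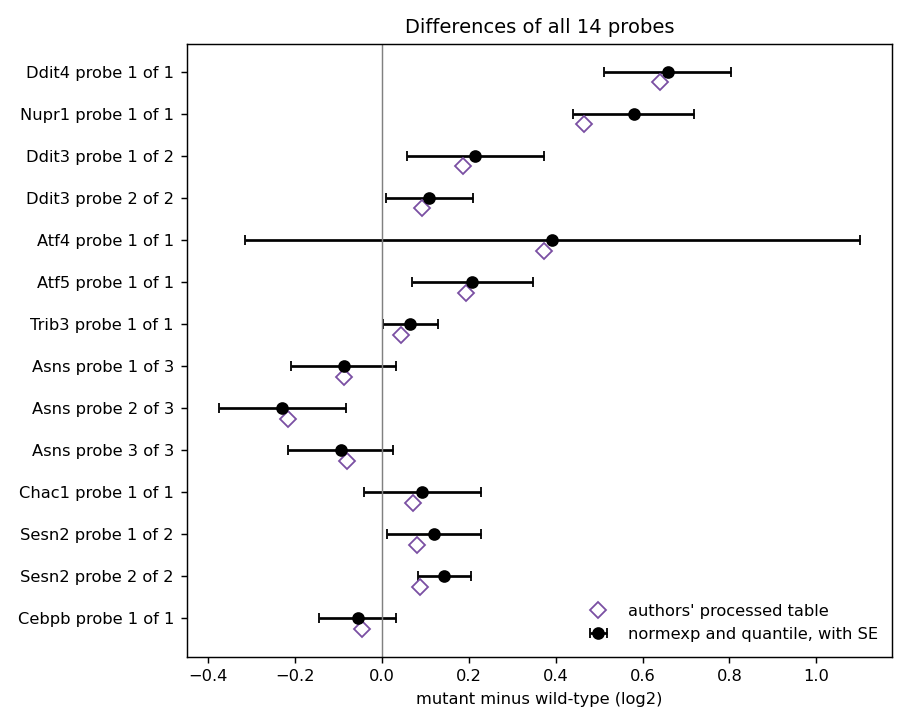
Difference between mutant and wild-type means (log2) for each of the 14 probes, with its SE (filled), and the same difference in the authors' processed table (open). The probes of Ddit4 (0.66) and Nupr1 (0.58) have the largest differences of the 14, and the rest lie between -0.23 and 0.39, with the widest SE (0.71) for Atf4.

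**Figure D4:**
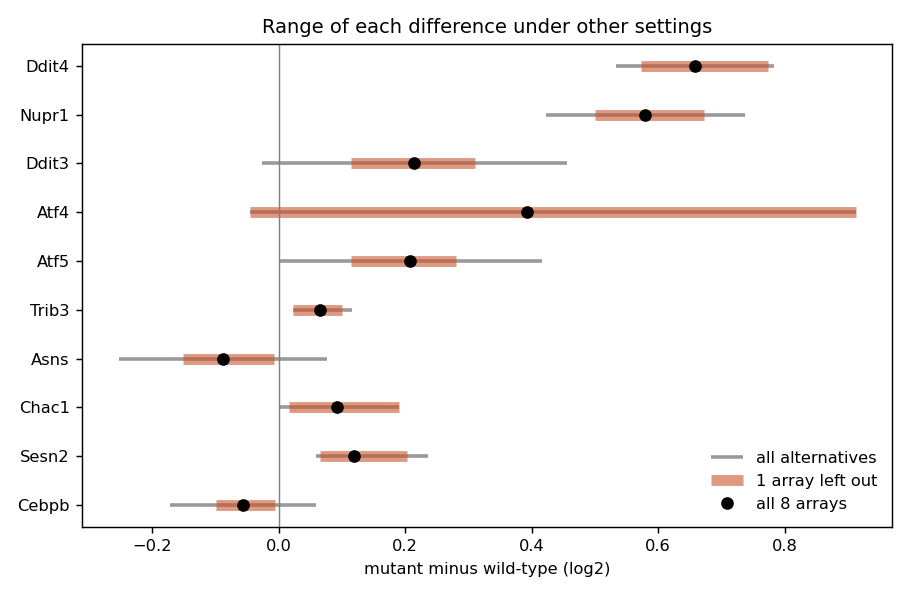
Difference of each gene at its brightest probe (log2) with all 8 arrays (point), over the fits that leave out 1 array (thick bar) and over all alternative settings (thin line). Ddit4 stays between 0.53 and 0.78 and Nupr1 between 0.42 and 0.74, while the bar of Atf4 runs from -0.04 to 0.91.

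The pathway around these genes was described with 11 further lists, none of which holds a member. No target list of Atf4 moved as a whole among its tested genes. Of 33 tested targets in 3 lists, 0 passed limma at an adjusted p under 0.05, with 16 differences above 0 and 17 below and a median of -0.0014; 6 had an unadjusted p under 0.05, a level reached by 18.2% of all features. In amino acid synthesis and transport (16 tested), the serine synthesis enzyme gene Psat1 stood at -0.25 ± 0.12 and the glutamine transporter gene Slc38a2 at -0.14 ± 0.10, the brightest of that list (limma adjusted p = 0.316 and 0.488). With wild-type replicates 1 and 2 left out, 4 of these 16 were called. Phgdh (-0.66) and Psat1 (-0.43) were lower and the transporter genes Slc7a11 (0.78) and Slc1a4 (0.41) higher. That setting called 1218 of all 8935 named genes, against 224 with all arrays. Of 10 tested genes of tRNA charging and export 0 passed limma, with 2 at an unadjusted p under 0.05. Gars stood at 0.13 ± 0.07 and Aars at 0.08 ± 0.14. Of 12 other targets on the list 7 were tested, without Atf3, Stc2, Gdf15, Fgf21 and Ero1l. With no filter 10 were tested and 0 called. Of the 7, 0 passed limma, and 0 also at an unadjusted p under 0.05. Among those 7, the autophagy genes Sqstm1 and Map1lc3b stood at -0.09 ± 0.15 and -0.01 ± 0.11.

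Upstream, 0 of 11 genes of the eIF2 kinases, phosphatase subunits and eIF2B passed limma, with 1 at an unadjusted p under 0.05 and a median of 0.00092. Eif2s2, the beta subunit of eIF2, stood at -0.23 ± 0.10 and Eif2b4 at -0.07 ± 0.08. Of 21 listed chaperone genes of the endoplasmic reticulum and genes of the parallel branches of the unfolded protein response, 13 were tested, without Atf6 and Ern1. Of these 13, 0 passed limma at an adjusted p under 0.05, against 3 at an unadjusted p under 0.05. Among them the factor gene Xbp1 stood at 0.29 ± 0.09 and the chaperone gene Hsp90b1 at -0.24 ± 0.11. Of 8 CREB, ATF and C/EBP factors 1 rose, Creb3, a membrane-bound factor of the secretory pathway, by 0.38 ± 0.08 (limma, n = 4 per group, adjusted p = 0.0499). The call lay at the threshold and was lost without any single array other than wild-type replicate 2 (adjusted p up to 0.162). Nrf2, its repressor gene Keap1 and its targets in the oxidative stress response gave 0 of 8 past limma, with 1 at an unadjusted p under 0.05; Prdx1 stood at -0.11 ± 0.11 and Keap1 at 0.09 ± 0.09.

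Of 18 genes of mTORC1 and its regulators, the complex that Ddit4 and Sesn2 restrain, 1 fell and 0 rose. Eif4e, the cap-binding translation factor whose repressors mTORC1 controls, fell by 0.67 (SE 0.15, limma adjusted p = 0.0492, n = 4 per group). It read 7.84, 7.75, 7.39 and 7.50 in the wild-type. In the mutant it read 7.32, 6.81, 6.67 and 6.99, so that every mutant array lay below every wild-type array, by a narrow margin. The call was lost without any single array other than mutant replicate 1 (adjusted p up to 0.144), and in the authors' table. The only probe of Eif4e was dim, with a mean log2 level of 7.28 over the arrays, against 7.42 for Nupr1.

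The lists of other inputs and other stress responses held the firmest calls. Of 10 p53 targets 2 rose: Gadd45a, a growth arrest gene that Atf4 can also induce, by 0.495 ± 0.08, and Bbc3, which encodes the pro-apoptotic protein Puma, by 0.61 ± 0.13 (limma adjusted p = 0.0102 and 0.0453, n = 4 per group). Gadd45a read 10.09 to 10.28 in the wild-type and 10.58 to 10.74 in the mutant, stayed called without any single array (adjusted p = 0.0174 to 0.0443), and differed by 0.25 at its second probe. Bbc3 lost its call without any single array other than wild-type replicates 1 and 2 (adjusted p up to 0.133), and its other probes, too dim to pass the filter, gave differences of 0.071 and 0.088. The list's median was 0.15. Of 16 targets of hypoxia-inducible factors, 14 had differences above 0, with a median of 0.14. Of these 16, 0 passed limma, against 2 at an unadjusted p under 0.05. Their mean level, relative to its average over the arrays, overlapped between genotypes. It was 0.09, -0.16, -0.13 and -0.09 on wild-type replicates 1 to 4. On mutant replicates 1 to 4 it was 0.09, 0.15, 0.11 and -0.06. Ldha stood at 0.19 ± 0.15 and Bnip3l at -0.03 ± 0.09.

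Of 12 listed genes of heat shock proteins 8 were tested, without Hspa1a, Hspa1b, Hsp90ab1 and Hsf1. The tested genes stood on the other side, with differences below 0 for 8 of 8 and a median of -0.18. Of these 1 fell: Hspe1, the mitochondrial co-chaperonin, by 0.53 (SE 0.07, limma adjusted p = 0.00677, n = 4 per group). It read 10.60 to 10.77 in the wild-type and 10.12 to 10.25 in the mutant, and stayed called without any single array (adjusted p up to 0.0338). It lost the call when replicate 4 of both groups was left out. Hspd1, its partner chaperonin, at -0.36 ± 0.10, did not pass (adjusted p = 0.0929), and was called when the probes of a gene were averaged (-0.43, adjusted p = 0.0326).

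**Figure D5:**
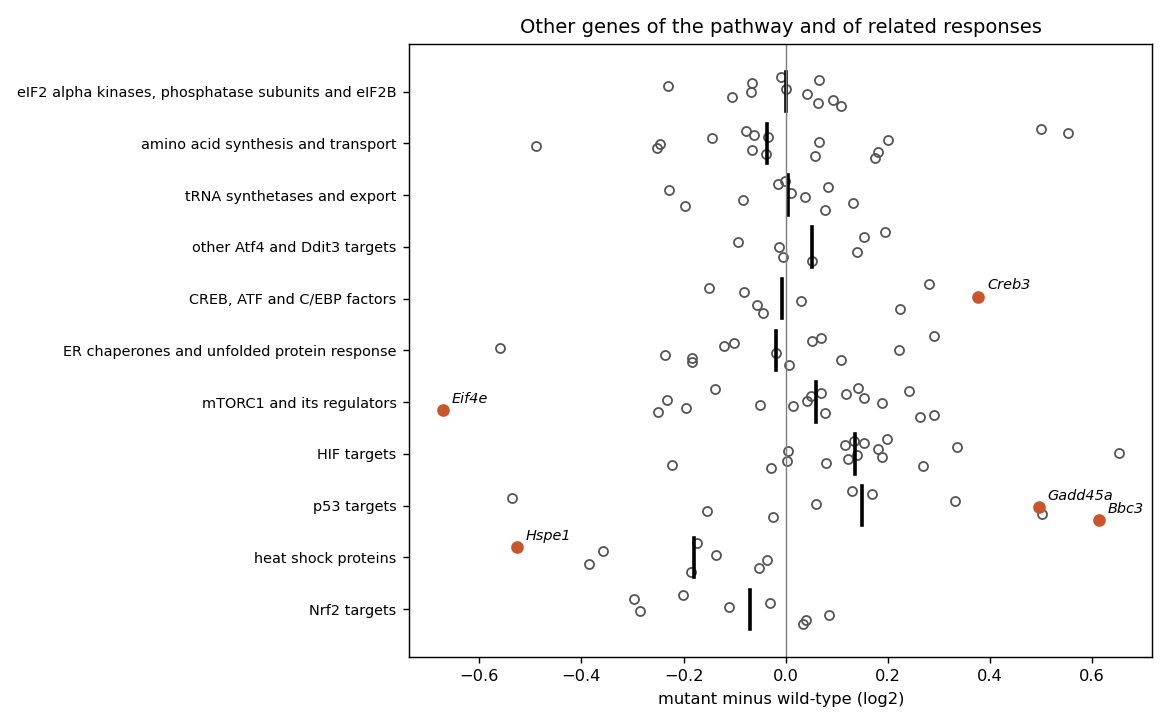
Difference between mutant and wild-type (log2) for every tested gene of the 11 lists, 1 point per gene; filled points passed limma at an adjusted p under 0.05 and are named, and bars mark list medians. Named points are Creb3, Gadd45a and Bbc3 above 0 and Eif4e and Hspe1 below 0, 5 of 125 genes.

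Over the 11 lists, 5 of 125 genes passed, 3 higher and 2 lower. Over all named genes 224 of 8935 passed, 44.2% of them lower in the mutant; with scaling to the median in place of quantile normalization 76.1% of 238 were lower. Median intensities were 144 to 159 in the wild-type and 138 to 147 in the mutant. Wild-type arrays formed pairs, replicates 1 and 2 against 3 and 4, and cell cycle genes (0.62 and 0.72 on the latter pair, at most -0.13 on the other 6 arrays) and erythroid genes (0.498 and 0.90, at most -0.07) stood higher on replicates 3 and 4. Defining genes of sensory neurons were present, with 7 of 8 measured markers above the filter level, Isl1, Pou4f1 and Stmn2 among them. Of these 7, Tlx3, a transcription factor gene of sensory neurons, rose in the mutant by 0.75 ± 0.12 (limma adjusted p = 0.0108, n = 4 per group). It lost the call when replicate 4 of both groups was left out. The other 6 were not called, with differences from -0.04 for Prph to 0.17 for Pou4f1. Of the glial markers 2 were measured, and Fabp7 alone was above the filter level, at a difference of -0.52 ± 0.19 (limma adjusted p = 0.188). The part of such shifts in the members' differences was not tested. Of 6 muscle markers, Myog, Myod1 and Tnnt3 were below the filter level, and Actc1, Acta1 and Myl1 were above it. The mean level of the latter 3, relative to its average over the arrays, differed widely among the mutant arrays. It ran from -0.98 on mutant replicate 2 to 0.88 on mutant replicate 4. The part of muscle RNA in the members' differences was not tested either. The targeted ERK genes were not analysed here.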

How the data were processed

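Bead intensities were deposited for 8 arrays and 25697 probes, unnormalized and with no background subtracted (lowest value 80.3); BeadStudio, per the submitters' processing notes, is the tool named, and its settings are not given in the sources used here. The authors' processed table, deposited in log2 units, equals log2 and quantile normalization of those intensities, to within 5.0e-09.

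Intensities were background corrected (normexp, offset 50), put on the log2 scale and quantile normalized (limma 3.58.1, R 4.3.3). The offset alone shrinks differences of dim probes, but the correction as a whole did not. Against no background correction, the difference was 0.58 against 0.46 for Nupr1, and 0.12 against 0.08 for the brighter probe of Sesn2. For Trib3 it was 0.07 against 0.04. Probes were named through Entrez identifiers (23962 of 23978; 16 kept the platform symbol; 0 had several symbols and 1719 none). Probes with a mean above the median of all probes (6.71) were kept. The brightest probe stood for each gene, giving 9664 features. limma (lmFit, eBayes, two-sided, no covariate) tested them, with Benjamini-Hochberg adjustment over all; calls are at an adjusted p under 0.05. SEs of the 10 genes come from the pooled SD between arrays, other SEs from limma. Members and lists were chosen with earlier results of these data known. From each list, called genes are named, up to 4, or the 2 brightest; Phgdh, Slc7a11, Slc1a4 and Hspd1 were added after their values were seen. In simulated data with 9664 features, 70.1% of genes changed 1.5-fold and 98.5% changed 2-fold were recovered. Noise there was drawn independently for each feature and array, without the pairs seen among the wild-type arrays. These rates may therefore not hold for the measured data. The number of arrays limits the precision. Alternatives are given in the closing section. Same-numbered arrays of the groups were not paired: their deviations correlated at -0.28 to -0.05.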

Additional observations from a re-analysis of the deposited data

Results flagged for a closer look

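Among 94 groups of 4 arrays examined, 3 held an array far from the other 3, by Dixon's ratio of the gap to the range; chance alone flags about 1 group in 20. The wild-type arrays of Atf4 gave a ratio of 0.949, with replicate 4 at 7.85 against 9.57 to 9.66. The mutant arrays of Atf4 were not among them, since mutant replicates 3 and 4 lay apart on opposite sides. The wild-type arrays of Eif2s2, the beta subunit of eIF2, gave 0.929, with replicate 3 highest. The mutant arrays of Keap1, the repressor of Nrf2, gave 0.849, with replicate 4 highest. The difference of Atf4 between genotypes turned sign without wild-type replicate 4 (-0.04).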

How the results depend on the processing

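With 4 arrays a group, many calls depended on single arrays. Ddit4 and Nupr1 kept their sign under all 18 alternatives. Since their arrays did not overlap between genotypes, leaving out arrays could not turn it, and nothing is read from this. Ddit3, Asns and Cebpb turned sign without wild-type replicates 1 and 2, and Atf4 without wild-type replicate 4 or replicates 3 and 4; the cause was not tested. Leaving out 1 array gave 67 to 200 called genes in place of 224, 0 to 2 called members, and in the lists 1 to 2 p53 targets, 0 to 1 CREB, ATF and C/EBP factors and 0 to 1 mTORC1 genes. Without wild-type replicates 1 and 2, 1218 of 8935 genes were called (210 of the 224), with 3 members (Atf5, Ddit4 and Nupr1). Calls in the lists then included 4 amino acid genes, 1 other target, 2 HIF targets, 4 p53 targets and 2 heat shock genes. Without wild-type replicates 3 and 4, 212 were called (111 of the 224), with 0 members, 0 CREB, ATF and C/EBP factors and 1 p53 target. Chosen after seeing the data, leaving out replicate 4 of both groups gave 54 genes, 1 member (Ddit4), 1 p53 target and 0 of the CREB, ATF and C/EBP, mTORC1 and heat shock genes. Median scaling called 238 genes, with 1 member (Ddit4), 1 amino acid gene, 1 p53 target and 0 CREB, ATF and C/EBP factors. The upper-quartile filter called 151 of 4914 genes. It tested 4 members and called 1 (Ddit4), and 0 mTORC1 genes. Nupr1 and Eif4e lay below its level of 8.42 and were not tested there. Array weights called 341 genes; array weights, no background correction, the authors' table and averaged probes called 0 mTORC1 genes, averaged probes 2 heat shock genes, and no filter 0 CREB, ATF and C/EBP factors. The replicate number as a block gave 82 genes and 0 members, p53 targets, heat shock genes or CREB, ATF and C/EBP factors; 0 of 8 arrays correlated best with the same number in the other group, so the numbers share no known pairing. Dim probes (Sesn2, Trib3, Nupr1, Eif4e) limit what could be seen.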

Other observations

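Several genes of the lists had differences near or above 0.5 on the log2 scale without passing limma; they were chosen after their values were seen. Below 0 these were the oxidoreductase gene Pdia3 at -0.56 ± 0.15 (adjusted p = 0.0850), the p53 target Plk2 at -0.54 ± 0.16 (adjusted p = 0.110) and Phgdh, the first enzyme of serine synthesis, at -0.49 ± 0.13 (adjusted p = 0.0920). Above 0 were the cystine transporter gene Slc7a11 at 0.55 ± 0.16 (adjusted p = 0.112), the leucine transporter gene Slc7a5 at 0.50 ± 0.18 (adjusted p = 0.174), the cell cycle inhibitor gene Cdkn1a at 0.50 ± 0.18 (adjusted p = 0.183) and the HIF target Ndrg1 at 0.65 ± 0.32 (adjusted p = 0.317). Genes of amino acid supply thus lay on both sides of 0.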
